A study of Sus scrofa with 8 samples.

Results

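Small nucleolar RNAs (snoRNAs) and small Cajal body RNAs (scaRNAs) were examined in total RNA of swine skin. A gene was included when its annotated biotype was snoRNA or scaRNA and its mean count over the 8 biopsies was at least 50. This gave 58 members of 616 such genes, and of 31907 genes in all. The members were chosen by their mean count, so the levels below are a description. The differences between biopsies were not used in the choice.

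The biopsies came from wild-type (WT) Yorkshire swine, 2 animals called pig 13 and pig 14. In each pig 2 sites received 200 ng of interleukin-15 (IL-15, a cytokine that signals through JAK1 and JAK3) into the dermis in 100 µl of saline, and were biopsied after 3 h. The 2 control sites of each pig were not injected, and no site received saline alone. Each injected site was numbered 12, while controls were numbered 6 or 7, so site and treatment cannot be told apart. The study sought induced genes as readouts for ATI-1777, a topical JAK1/3 inhibitor. Ages and sexes were not given in the sources used here. Each p-value below measures the spread between sites of these 2 animals, which are not a sample of pigs.

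snoRNAs guide chemical modification of ribosomal RNA in the nucleolus. Those of the box C/D class direct methylation of the ribose and are named SNORD, and those of the box H/ACA class direct the change of uridine to pseudouridine and are named SNORA. scaRNAs carry the same boxes, act in Cajal bodies and modify the small nuclear RNAs of the spliceosome. A few snoRNAs are needed to cut the ribosomal precursor instead. In mammals most snoRNAs are trimmed out of introns of other genes, often genes of the translation machinery, and a few are transcribed on their own.

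By symbol or biotype, 11 members were scaRNAs, 20 were box H/ACA and 10 were box C/D snoRNAs. The other 17 were snoRNAs without a symbol, which are given by their Ensembl gene ID and to which no role is assigned. The members held 97.6% of all counts on the 616 genes, and 174 of the 616 had no count in any biopsy. Their share of the library was 0.395% to 0.572% after injection and 0.437% to 0.569% without, from totals of 28471089 to 36070107 counts on genes. The 3 members with most counts held 53.8% of the members' counts and the first 10 held 86.8%.

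U3 and U8, the best known snoRNAs that act in cutting the precursor, were not among the members. U3, needed for cleavage of the precursor around the small-subunit rRNA, was annotated in 22 places, and all 22 together held 14 to 39 counts per biopsy. The 3 genes annotated as U8, which acts on the large-subunit precursor, held 0 counts in every biopsy, which allows up to 3 counts per library or 0.0832 to 0.105 CPM. CPM is the count scaled to a common library total, here and below with TMM factors (trimmed mean of M-values) except for this limit. The 8 genes of SNORD115 summed to 0 to 7 counts and the 16 of SNORD116 to 0 to 4. The 4 genes of SNORD14, another processing snoRNA, summed to 20 to 51 counts. SNORD115 and SNORD116 come from an imprinted locus and are best known from brain. The labels do not say whether reads that match several copies were counted. A low count on a gene with many copies, such as U3, therefore does not show a low level of the RNA.

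Long genes passed the minimum more often than short ones. Of genes of at least 200 bases, 13 of 28 did (46.4%), against 34 of 272 from 120 to 188 bases (12.5%) and 11 of 316 shorter ones (3.48%). By class, as symbol or biotype gives it, the shares were 39.3% of 28 scaRNAs, 15.7% of 127 box H/ACA and 5.68% of 176 box C/D snoRNAs. Of the 285 other genes, without a SNORD, SNORA or SCARNA symbol, 5.96% passed. The U3 and U8 genes are counted among these 285. Across all 616 genes length and mean count had a Spearman rho of 0.112, and across the 58 members of 0.568. These are descriptions, since all points come from the same libraries and a longer RNA gives more fragments. Column kits of the kind the labels name and library size selection recover short RNAs incompletely. Their part in these levels was not tested.

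**Figure D1:**
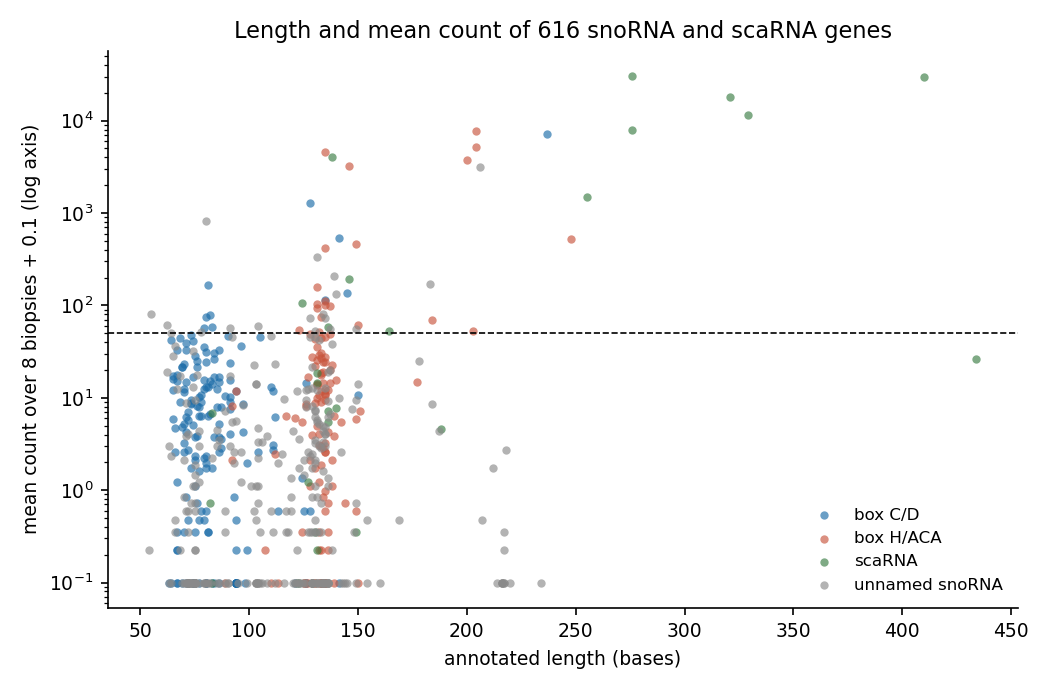
Annotated length in bases (x axis) and mean count over 8 biopsies plus 0.1 (y axis, log axis) of each of the 616 snoRNA and scaRNA genes, coloured by class, with the dashed line at the mean count of 50. The points above 1000 counts are 15 genes, 11 of them at least 200 bases long.

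Just inside the minimum lay SNORA63 (ENSSSCG00000022926) at a mean count of 51.4, ENSSSCG00000018229 at 51.8 and ENSSSCG00000040136 at 52.1. Just outside lay ENSSSCG00000031259 at 49.8, SNORA27 at 49.1 and SNORA46 at 48.6. All 58 members passed the filter on low counts and entered the tests. Levels are given as CPM, and as CPM per kilobase where genes are compared with each other.

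The members of highest level per length were scaRNAs, though other scaRNAs were near the bottom. SCARNA13 led at 3646 CPM per kilobase (mean of 8 biopsies), followed by SCARNA2 at 2389 and SCARNA7 at 1835. Among box H/ACA snoRNAs the highest was a SNORA73 gene at 1242, among box C/D snoRNAs SNORD17 at 986, and the lowest of all members was a SNORA74 gene (ENSSSCG00000044718) at 8.40. Where 2 members share a symbol, which holds for 10 of the 58, reads of near-identical copies may have been split between them, and the level of each copy is uncertain.

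SCARNA13 (ENSSSCG00000020462), known as U93 and built of H/ACA units, lies on chromosome 7 (116785959 to 116786234, minus strand, Sscrofa11.1) in an intron of the noncoding gene LOC100525590. Its level was 1211 and 975 CPM in the injected and 1226 and 1513 CPM in the control biopsies of pig 14. In pig 13 it was 839.8 and 818 CPM in injected and 655 and 813 CPM in control biopsies. Every pig 14 biopsy stood above every pig 13 biopsy, while within each pig the differences between injected and control sites went opposite ways.

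SCARNA2 (ENSSSCG00000018682, chromosome 4, 110963742 to 110964151, minus strand) modifies U2 small nuclear RNA and in human is transcribed from its own promoter. No gene of either annotation held it here on the same strand. It stood at 1249 and 869.6 CPM in injected and 1137 and 1253 CPM in control biopsies of pig 14, and at 747 and 823 CPM in injected and 848 and 910.4 CPM in control biopsies of pig 13. Both pig 13 controls were above both injected biopsies of that pig, while in pig 14 the groups overlapped.

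SCARNA7 (U90, in an intron of KPNA4, an importin gene) stood at 656 and 653 CPM in injected and 584 and 859 CPM in control biopsies of pig 14. In pig 13 it was at 455 and 628 CPM in injected and 453 and 423 CPM in control biopsies. SCARNA10 (U85, in NCAPD2, a condensin subunit gene), a composite guide with both kinds of box, stood at 459.7 and 388 CPM in injected and 359 and 490.4 CPM in control biopsies of pig 14. Its level in pig 13 was 257 and 359.6 CPM in injected and 343 and 337 CPM in control biopsies. Both RNAs overlapped between injected and control biopsies over the study, although SCARNA7 was higher in both injected than in both control biopsies of pig 13.

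The other scaRNAs were lower. ENSSSCG00000020505, a scaRNA without symbol in ATG16L1, ran from 182 to 346 CPM over the 8 biopsies, and ENSSSCG00000029854, in CHD3, from 97.3 to 202 CPM. SCARNA12, inside PHB2 and LPCAT3, ran from 36.4 to 58.4 CPM. ENSSSCG00000020045, ENSSSCG00000020173, SCARNA3 and SCARNA1 all stayed below 8 CPM, and SCARNA1 was the second lowest member per length, at 10.3 CPM per kilobase.

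SNORA73 (U17) is the box H/ACA snoRNA that vertebrates need for cutting the small-subunit rRNA precursor. Both of its member genes lie in introns of LOC100621455 on chromosome 6, at 85534254 to 85534457 and 85535474 to 85535677, with 1016 bases between them. The first (ENSSSCG00000037630) stood at 370.2 and 316 CPM in injected and 249.7 and 239.9 CPM in control biopsies of pig 14, and at 192 and 172 CPM in injected and 325 and 161 CPM in control biopsies of pig 13. The second (ENSSSCG00000034185) stood at 276 and 228 CPM in injected and 199.5 and 178 CPM in control biopsies of pig 14. Its level in pig 13 was 119 and 108 CPM in injected and 166 and 106 CPM in control biopsies. The first was 1.25 to 1.96 times the second in every biopsy. Both were higher in both injected than in both control biopsies of pig 14, and in pig 13 the control from site 7b was the highest.

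SNORA48, a box H/ACA guide in EIF4A1 (an initiation factor gene), stood at 226 and 176 CPM in injected and 129.7 and 173 CPM in control biopsies of pig 14. In pig 13 it was at 105 and 118 CPM in injected and 145 and 119 CPM in control biopsies. The neighbouring ENSSSCG00000020152, 704 bases away in the same host gene, was lower, at 11.6 CPM per kilobase where SNORA48 had 1102. In counts SNORA48 was 51.9 to 131 times as high in every biopsy, so a shared host did not go with a shared level.

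SNORD17 (ENSSSCG00000018309, in an intron of SNX5), a methylation guide for the large-subunit rRNA, was the leading box C/D member. It stood at 304 and 227 CPM in injected and 249.5 and 334 CPM in control biopsies of pig 14, and at 163 and 153 CPM in injected and 197 and 242 CPM in control biopsies of pig 13. In pig 13 both controls were above both injected biopsies. SNORD22 (U22), needed for processing of the small-subunit rRNA, stood at 57.6 and 55.4 CPM in injected and 29.2 and 42.5 CPM in control biopsies of pig 14, against 25.0 and 34.5 CPM in injected and 57.5 and 27.5 CPM in control biopsies of pig 13.

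**Figure D2:**
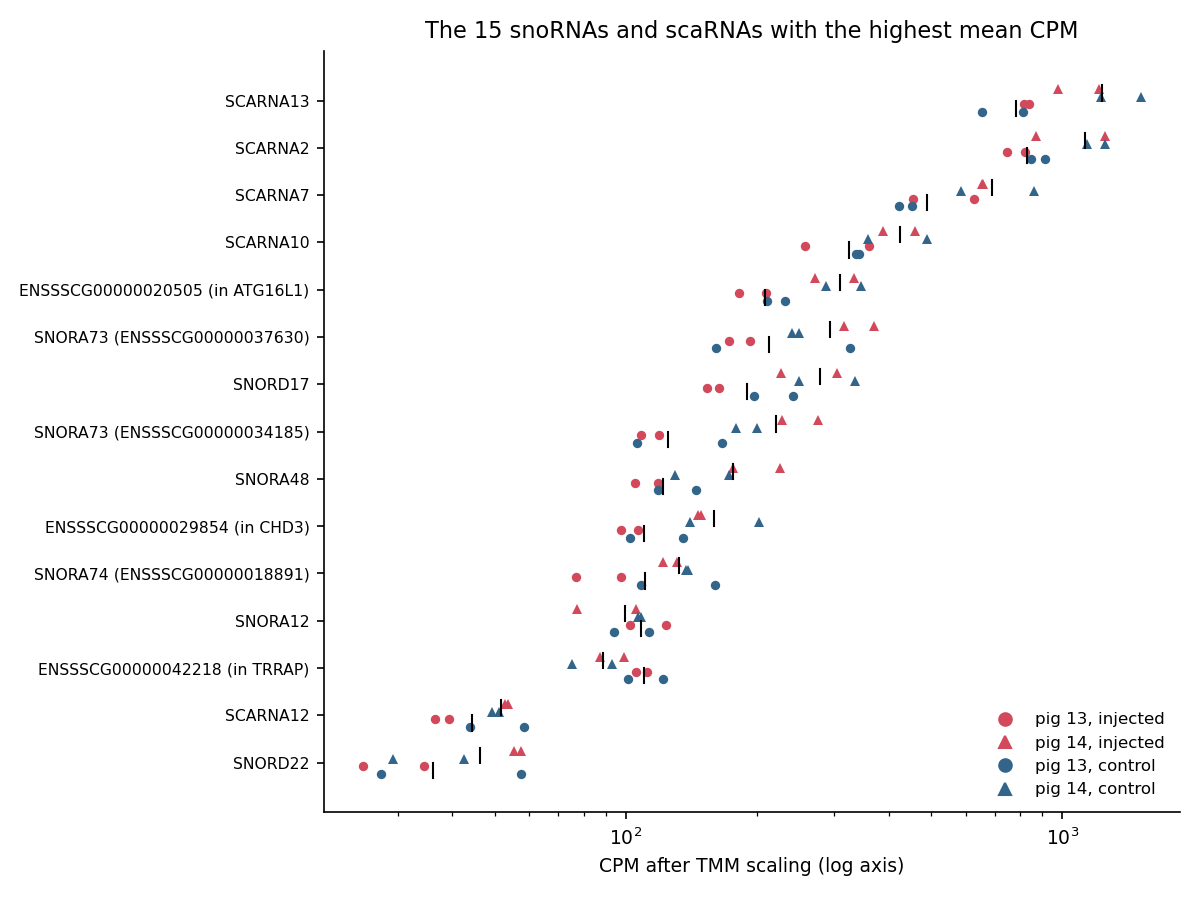
CPM after TMM scaling (x axis, log axis) of the 15 members with the highest mean CPM, one row each, in the 8 biopsies. Triangles are pig 14 and circles pig 13, red is injected and blue control, and each black bar is the mean of the 4 biopsies of one pig. In 13 of the 15 rows the pig 14 mean lies to the right, the exceptions being SNORA12 and ENSSSCG00000042218.

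Most members lay within another gene. By the Ensembl spans in the files, 49 of the 58 lay on the strand of a gene that contains them, 48 within an intron and SNORA23 within an exon of IPO7. Of the 9 others, 6 lay within a gene of the RefSeq table, matched by position without regard to strand, and 3 within none, SCARNA2 among them, and all 9 are left out of the host comparisons. The 49 members shared 46 host genes, since 3 hosts held a pair. Of the hosts, 12 were genes of ribosomal proteins or translation factors, holding 14 members. Because reads of unspliced host RNA can fall on an intronic member, each member was set beside its host per kilobase. The host value is of reads on annotated exons, which does not tell spliced from unspliced RNA. The ratio compares levels and cannot measure how many host reads fell on the member. Of the 49, 32 were above and 17 below their host, with a median ratio of 1.55 and a range from 0.0303 (SNORD96 in RACK1) to 592 (SCARNA13).

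The ratio varied with the class of the host. In ribosomal protein and translation factor genes 1 of 14 members was above its host, SNORA48 at 15.8 times, and the median ratio was 0.144. In other protein-coding genes 25 of 29 were above with a median of 3.54, and in long noncoding genes all 6 were, with a median of 45.9. The hosts of the first class had a median of 251 CPM per kilobase and those of the other classes of 10.9 and 11.4. The part of host RNA in the members' counts, above or below the host, was not tested.

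Injected and control sites were then compared with edgeR's quasi-likelihood F test with pig as block, adjusted over all 19862 genes tested. None of the 58 members was called, where 0.0352% of all genes were (7 genes, all higher). DESeq2 called none of the members and 0.31% of genes. At an unadjusted p under 0.05, 2 members were lower and none higher in edgeR, or 3.45% against 4.54% of all genes, of which 2.15% were lower and 2.39% higher. The median log2 fold change of injected over control was 0.02 for the members and -0.01 for all genes, and 30 members were higher and 28 lower. The members' summed level was 4643 ± 1006 CPM over the injected sites and 4902 ± 1020 CPM over the controls (SD, n = 4), a ratio of 0.947. Fewer cells of a type and less RNA per cell cannot be told apart in whole biopsies.

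The 2 members with the smallest p were both lower. SNORD24, a methylation guide for the large-subunit rRNA, stood at 2.21 and 1.69 CPM in injected and 2.79 and 2.94 CPM in control biopsies of pig 14, from 46 to 164 counts per biopsy over the study. In pig 13 it was at 1.81 and 1.96 CPM in injected and 4.48 and 2.17 CPM in control biopsies. Every injected biopsy lay below every control of its pig, which held for 2 members, or 3.45%, and for 2.83% of all genes. Its log2 fold change was -0.69 ± 0.25 (SE, edgeR adjusted p = 0.964). It lies on chromosome 9 (116147907 to 116147988, minus strand) within the RefSeq gene LOC110255511, between ENSSSCG00000039255 and ENSSSCG00000018229, whose values were -0.15 ± 0.24 and 0.03 ± 0.25. In human a snoRNA of this name lies in RPL7A.

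The other was the SNORA74 gene in MATR3 (ENSSSCG00000018891), U19, a box H/ACA snoRNA. It stood at 131 and 121 CPM in injected and 137 and 139 CPM in control biopsies of pig 14, and at 97.5 and 77.0 CPM in injected and 159.6 and 108 CPM in control biopsies of pig 13. Its log2 fold change was -0.37 ± 0.15 (SE, edgeR adjusted p = 0.964). Next among the members lower in injected sites came SNORD17 at -0.30 ± 0.14, SNORD45A at -0.55 ± 0.29 and ENSSSCG00000018303 at -0.28 ± 0.15, all with an adjusted p of 0.964.

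Among members with higher means in injected sites SNORD15, a box C/D snoRNA in RPS3, came first. It stood at 7.36 and 6.47 CPM in injected and 2.96 and 4.01 CPM in control biopsies of pig 14, but at 3.25 and 4.24 CPM in injected and 4.67 and 2.57 CPM in control biopsies of pig 13. The groups separated in pig 14 and overlapped in pig 13, and the log2 fold change was 0.52 ± 0.26 (SE, edgeR adjusted p = 0.964). ENSSSCG00000018244 in MRPL39 followed at 0.37 ± 0.22, SNORA53 in SLC25A3 at 0.24 ± 0.15, SNORD94, which modifies the U6 small nuclear RNA, at 0.43 ± 0.29, and a SNORA71 gene (ENSSSCG00000025722) at 0.30 ± 0.21.

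The median over all 58 members had opposite signs in the 2 pigs, but not the median over the members with most counts. In pig 14 both injected biopsies were above both controls for 31 of the 58 members (53.4%, against 20.5% of all genes) and below for 6 (10.3%, against 21.0%). In pig 13 both injected biopsies were below both controls for 18 members (31.0%, against 16.6%) and above for 2 (3.45%, against 18.2%). Both patterns were met by 10 members (17.2%, against 3.66%). The median log2 ratio of injected over control means was 0.35 in pig 14 and -0.27 in pig 13, where all genes had -0.01 in each. The 15 members with a mean count of at least 1000 held 95.6% of the members' counts. Their medians were -0.07 in pig 14, where 6 of the 15 were higher after injection, and -0.22 in pig 13. The 43 others had 0.43 in pig 14 and -0.30 in pig 13. The 11 scaRNAs had -0.07 and -0.16.

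The interaction of pig and treatment was also fitted. It is the difference between the log2 ratios of the 2 pigs, so its direction restates the values above. No member and no gene was called by edgeR (0.0% of 19862), and at an unadjusted p under 0.05 there were 14 members (24.1%), all with the larger ratio in pig 14, against 8.22% of all genes, 3.81% in that direction and 4.41% in the other. The interaction was positive for 51 members (87.9%, against 49.7% of all genes), with a median of 0.65 against -0.00 on the log2 scale. These shares, and those given for each pig above, are descriptions. All 58 members were measured in the same 8 biopsies and cannot be taken as independent replicates. DESeq2 called 2 members, SNORD33 and SNORA21, where it called 0.615% of the 14471 genes to which it gave an adjusted p. Members with the lowest mean counts, SNORA62 among them, had no DESeq2 adjusted p for the interaction and could not be called.

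Some other short RNAs had values of the same signs, and others did not. The genes of small nuclear RNAs took 0.151% and 0.124% of counts at the injected sites of pig 14 and 0.0683% and 0.0774% at its controls. In pig 13 they took 0.0631% and 0.0588% at the injected sites and 0.0887% and 0.0529% at the controls. The groups separated in pig 14 and overlapped in pig 13. The 74 other short noncoding RNA genes tested had a median log2 ratio of 0.17 in pig 14 and -0.11 in pig 13, with a median interaction of 0.16. The 7 genes of the biotype ribozyme took 0.969% and 0.743% of counts at the injected sites of pig 14 and 0.958% and 0.872% at its controls. In pig 13 they took 0.706% and 0.710% at the injected sites and 0.968% and 0.861% at the controls. Their groups overlapped in pig 14, and in pig 13 both injected sites were lower. Genes of the biotype miRNA took 0.0393% and 0.0412% at the injected sites of pig 14 and 0.0373% and 0.0385% at its controls. In pig 13 they took 0.0285% and 0.0219% at the injected sites and 0.0309% and 0.0369% at the controls. Their groups separated in both pigs, in the opposite directions seen for the members. For the biotype misc_RNA the groups overlapped in pig 14, and in pig 13 both injected sites (1.54% and 1.18%) were below the controls (2.21% and 2.10%). Whether the members differ from these RNAs was not tested.

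Cell markers also moved with pig and treatment. The median log2 ratio of injected over control was 2.02 in pig 13 and -0.37 in pig 14 for the 4 adipocyte markers (median interaction -2.39), and 0.86 and -0.16 for the 6 fibroblast markers (-1.05). It was -0.23 and -0.34 for the 8 keratinocyte markers (0.15) and 0.20 and -0.18 for the 6 leukocyte markers (-0.35). For the 4 endothelial markers it was -0.12 and 0.35 (0.39), and for the 5 cell cycle markers -0.52 and 0.08 (0.70). The 5 skeletal muscle markers found had -0.04 and 0.20 (0.24), and the 3 red blood cell markers found 0.22 and -0.41 (-0.62). The endothelial, cell cycle and muscle values had the signs of the members. No marker of these lists was called for the interaction by edgeR. At an unadjusted p under 0.05 there were 1 adipocyte, 1 fibroblast, 1 keratinocyte, 1 endothelial, 1 cell cycle and 1 skeletal muscle marker. There were 0 leukocyte and 0 red blood cell markers. Their part in the members' interaction was not tested.

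**Figure D3:**
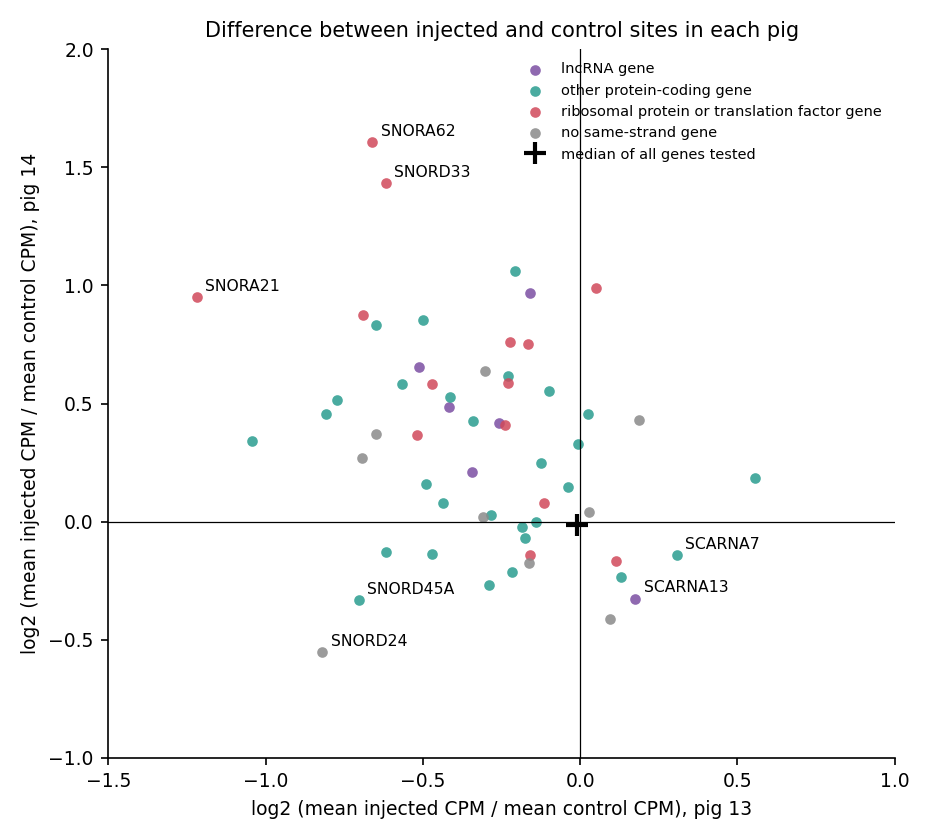
Log2 of mean injected over mean control CPM in pig 13 (x axis) and in pig 14 (y axis) for the 58 members, coloured by the class of the gene that holds them. Most points lie in the upper left, with negative values in pig 13 and positive in pig 14, and the cross for all genes lies close to 0 on both axes.

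SNORD33 and SNORD35A are box C/D snoRNAs in RPL13A, 487 bases apart, whose RNAs are known from cultured mammalian cells as mediators of lipotoxic stress. SNORD33 stood at 10.8 and 11.06 CPM in injected and 3.11 and 4.997 CPM in control biopsies of pig 14, and at 2.92 and 2.73 CPM in injected and 5.92 and 2.75 CPM in control biopsies of pig 13. The pig 14 injected biopsies were above all 6 others, and in pig 13 injected and control biopsies overlapped. The interaction was 2.06 ± 0.50 on the log2 scale (SE, edgeR adjusted p = 0.439, DESeq2 adjusted p = 0.0173). SNORD35A had 0.99 ± 0.51, and the ratio of SNORD33 to SNORD35A counts ran from 1.07 to 3.48 over the biopsies. RPL13A itself had an interaction of -0.17.

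SNORA21, a box H/ACA guide in RPL23, stood at 6.12 and 3.49 CPM in injected and 1.69 and 3.28 CPM in control biopsies of pig 14. In pig 13 it was at 2.00 and 1.38 CPM in injected and 4.67 and 3.20 CPM in control biopsies, with an interaction of 2.18 ± 0.58 (SE, edgeR adjusted p = 0.455, DESeq2 adjusted p = 0.048). SNORA62, a box H/ACA guide in RPSA, stood at 2.97 and 2.98 CPM in injected and 0.847 and 1.11 CPM in control biopsies of pig 14, against 1.87 and 1.19 CPM in injected and 3.55 and 1.30 CPM in control biopsies of pig 13. Its interaction was 2.28 ± 0.66 (SE, edgeR adjusted p = 0.477), from 24 to 130 counts per biopsy. All 3 lie in ribosomal protein genes.

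The median interaction was above 0 in every class of members, and differences between classes were not tested. By host it was 0.92 for the 14 members in ribosomal protein and translation factor genes, 0.79 in noncoding genes, 0.43 in other protein-coding genes and 0.27 for those without a host. By box class it was 0.90 for box H/ACA, 0.65 for box C/D, 0.66 for snoRNAs without symbol and 0.11 for scaRNAs. It was 0.18 for the 15 members with a mean count of at least 1000 and 0.85 for the 43 others. The median interaction of the 46 hosts was 0.05, and that of the 12 translation hosts was -0.01. Among those translation hosts the median log2 ratio in pig 14 was -0.21, where their members had 0.67.

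**Figure D4:**
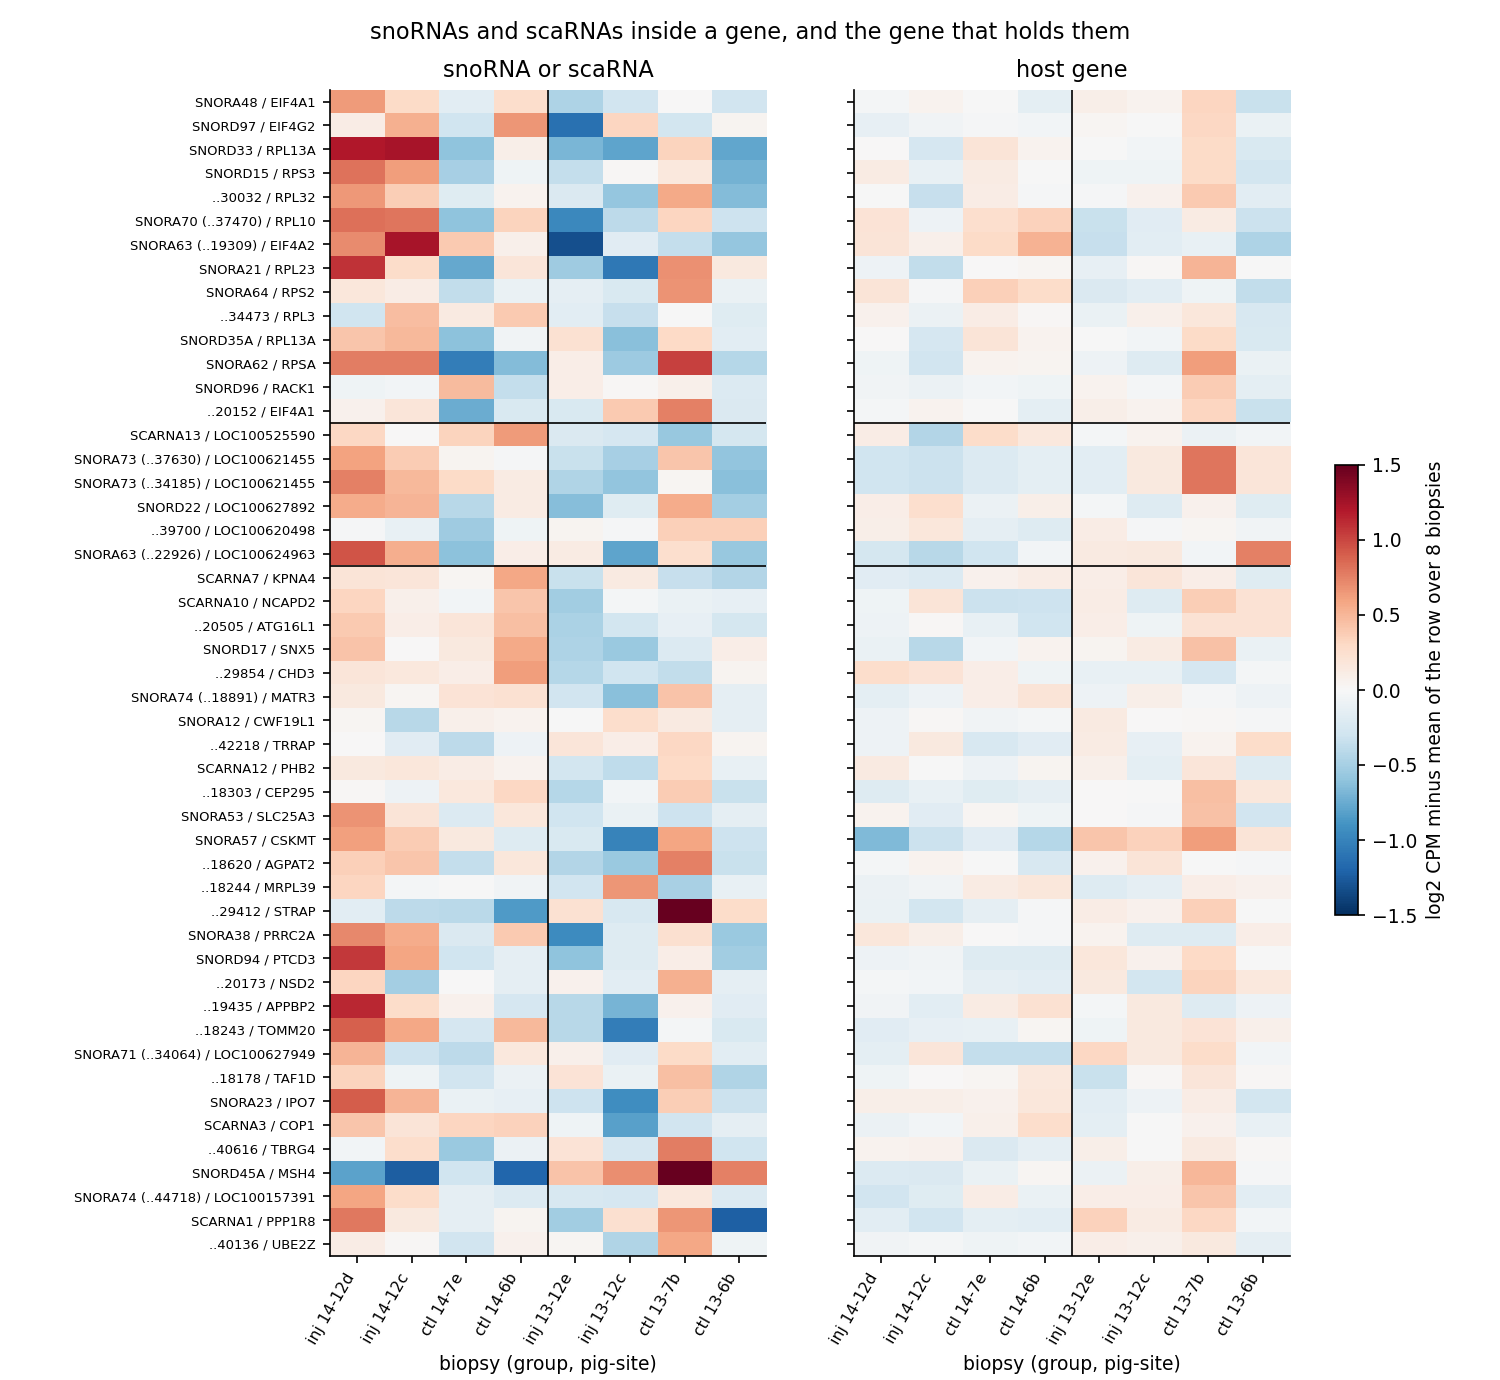
Log2 CPM minus the mean of the row over 8 biopsies (colour) for the 49 members inside a gene (left) and for the gene that holds each (right). Columns are biopsies, pig 14 left of the black line and pig 13 right of it. Row labels give member and host, with 5 last digits for genes without symbol or with a shared one, and horizontal lines part translation hosts, noncoding hosts and other hosts. Values beyond the colour scale have its end colour. The members in translation hosts are redder in the pig 14 injected columns, and their hosts stay near white there.

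The pattern was smaller without one control biopsy of pig 13, from site 7b. This biopsy was the highest of the 4 controls for 34 members (58.6%, against 29.5% of all genes) and the highest of all 8 biopsies for 19 (32.8%, against 19.8%). Without it the median interaction was 0.31, and it was positive for 43 of the 58 members. Then 5 of the 58 had an unadjusted edgeR p under 0.05, a smaller share than the 11.3% of all genes. In the fit of all 8 biopsies the members' share was the larger one. Without the other pig 13 control, from site 6b, the median was 0.87 and edgeR called 7 members, namely SNORD33, SNORA62, SNORD22, both SNORA73 genes, ENSSSCG00000018620 and ENSSSCG00000029412, and 1.55% of genes.

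The biopsy from site 7b also stood apart in its cell markers. The 6 fibroblast markers summed to 19082 CPM there and to 76704 to 192066 CPM in the other controls, and the 8 keratinocyte markers to 47932 CPM against 17900 to 25635 CPM. The 6 leukocyte markers were at 234 CPM against 86.1 to 217 CPM, and the 3 red blood cell markers found in the table at 5.76 CPM against 22.4 to 522 CPM. No marker of these lists was at 0 in any biopsy. Adipocyte markers, 4 in all, summed to 493 CPM there and to 472 to 2557 CPM in the other controls. The 5 cell cycle markers summed to 219 CPM against 142 to 154 CPM, and the 4 endothelial markers to 713 CPM against 501 to 691 CPM. Skeletal muscle markers were at 12.1 CPM against 12.4 to 19.1 CPM. The part of cell composition in the snoRNA levels was not tested. Without site 7b, 10 members had an unadjusted p under 0.05 for injection, 9 of them higher and 1 lower, against 5.92% of all genes, and none was called.

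The summed level of the members was higher in pig 14 than in pig 13, and 7 members were called between the pigs. The sum after TMM scaling was 5555 ± 645 CPM in pig 14 and 3990 ± 223 CPM in pig 13 (SD, n = 4), a ratio of 1.39. Before TMM scaling the members' share of counts was 0.4555% to 0.572% in pig 14 and 0.395% to 0.461% in pig 13, which overlapped. By class the ratio after scaling was 1.43 for box C/D, 1.36 for box H/ACA, 1.43 for scaRNAs and 0.902 for snoRNAs without symbol. The median log2 fold change of pig 14 over pig 13 was 0.31, where all genes had -0.00. edgeR called 7 members (12.1%, against 10.7% of all genes), 6 of them higher in pig 14 (6.39% of genes) and 1 lower (4.34%). DESeq2 called 13 members, or 22.4%, against 15.8% of genes, 11 of them higher (9.08% of genes) and 2 lower (6.71%). With 1 biopsy left out edgeR called from 1 member, without the pig 13 injected site 12e, to 14, without the pig 13 control site 7b. It called 2 without the pig 14 injected site 12d, 3 without the pig 13 injected site 12c and 4 without the pig 14 control site 6b.

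The higher ones were 3 scaRNAs, 2 box H/ACA snoRNAs and SNORD17. SCARNA13 averaged 1231 ± 220.4 CPM in pig 14 and 782 ± 85.04 CPM in pig 13 (SD, n = 4), with a log2 fold change of 0.65 ± 0.16 (SE, edgeR adjusted p = 0.0289). ENSSSCG00000020505 averaged 309 ± 35.4 and 208 ± 20.5 CPM, at 0.57 ± 0.11 (edgeR adjusted p = 0.0119). Of both RNAs every pig 14 biopsy was above every pig 13 biopsy, as was the case for 6 of the 58 members (10.3%, against 9.87% of all genes). The second SNORA73 gene had 0.81 ± 0.18, ENSSSCG00000029854 0.53 ± 0.13, SNORD17 0.58 ± 0.14 and the SNORA63 gene in EIF4A2 (ENSSSCG00000019309) 1.17 ± 0.29. Leaving out 1 biopsy in turn ended the call of ENSSSCG00000020505 in 1 of 8 cases and of the SNORA63 gene in 6. The calls of SCARNA13, the SNORA73 gene, ENSSSCG00000029854 and SNORD17 ended in 5 of 8 each. The hosts did not all differ alike, with -0.23 ± 0.11 for ATG16L1, -0.26 ± 0.13 for SNX5 and 0.54 ± 0.12 for EIF4A2.

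SNORD45A went the other way. This box C/D snoRNA guides methylation of the small-subunit rRNA and lies on chromosome 6 (137532264 to 137532346, minus strand), within MSH4 by the Ensembl spans and within RABGGTB, its host in human, by RefSeq. It stood at 0.795 and 0.588 CPM in injected and 1.13 and 0.610 CPM in control biopsies of pig 14, and at 1.87 and 2.25 CPM in injected and 4.37 and 2.36 CPM in control biopsies of pig 13. The pigs did not overlap, which held in this direction for 3 members and 8.73% of all genes, with 16 to 32 counts per biopsy in pig 14 and 57 to 160 in pig 13. The log2 fold change was -1.76 ± 0.30 (SE, edgeR adjusted p = 0.0055), or 3.40-fold lower in pig 14. SNORD45A was called under each of the 13 alternative settings run for the pig term. The next lower members, ENSSSCG00000029412 in STRAP at -0.98 ± 0.37, ENSSSCG00000042218 in TRRAP at -0.32 ± 0.11 and the SNORA71 gene ENSSSCG00000025722 at -0.35 ± 0.21, were not called by edgeR, and the first of these was called by DESeq2.

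The pigs also differed in some tissue markers. The fibroblast markers summed to 136102 to 192066 CPM in pig 14 and 19082 to 108740 CPM in pig 13, and the keratinocyte markers to 17900 to 24905 CPM and 25635 to 47932 CPM, so the pigs did not overlap in either. The red blood cell markers were at 209.6 to 544 CPM in pig 14 and 5.76 to 22.4 CPM in pig 13. Sums of the other lists overlapped, in pig 14 and pig 13 at 501 to 828 and 560 to 713 CPM (endothelial) and 523 to 2557 and 472 to 1971 CPM (adipocyte). They were 134 to 217 and 86.1 to 234 CPM (leukocyte), 15.6 to 19.1 and 12.1 to 16.3 CPM (skeletal muscle), and 142 to 162 and 121 to 219 CPM (cell cycle). Between the pigs edgeR called 1 of 6 fibroblast, 1 of 8 keratinocyte, 2 of 6 leukocyte and 3 of 3 red blood cell markers. The part of these markers in the difference between the pigs was not tested.

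The proteins that work with these RNAs were examined as lists. None was called between injected and control sites among the 8 core proteins of both particle classes, the 14 assembly and transport factors, the 25 proteins of the U3 processome or the 13 factors of end processing and decay. At an unadjusted p under 0.05 in edgeR, 1, 2, 2 and 0 of them were higher and none lower. DESeq2 did not call any of them either.

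The smallest p values in the core list belonged to GAR1 and NHP2, of the H/ACA particle, at log2 fold changes of 0.28 ± 0.12 and 0.34 ± 0.19, and to NOP56, of the C/D particle, at 0.14 ± 0.10. GAR1 averaged 10.5 ± 1.17 CPM over the injected sites and 8.68 ± 1.44 CPM over the controls (SD, n = 4). Among assembly factors RUVBL1 had 0.30 ± 0.12, its partner helicase RUVBL2 0.20 ± 0.10 and WRAP53, which brings scaRNAs to Cajal bodies, 0.26 ± 0.11. In the processome RRP9, which binds U3, had 0.35 ± 0.12, TBL3 0.21 ± 0.09 and UTP4 0.20 ± 0.10, and among processing factors EXOSC10, a nuclease of the nuclear exosome, had 0.15 ± 0.08. The median of the 4 lists ran from -0.03 to 0.09, beside -0.01 for all genes.

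Of 30 host genes listed by symbol none was called by edgeR or DESeq2, with 1 lower and 0 higher at an unadjusted edgeR p under 0.05. EEF1B2, an elongation factor gene, had the smallest p, at -0.28 ± 0.12. Of 74 other short noncoding RNA genes tested neither tool called any, with 1 higher and 1 lower at an unadjusted edgeR p under 0.05. The smallest p was that of a U6 gene (ENSSSCG00000018941) at -0.80 ± 0.31. Nuclear and mitochondrial rRNA together took 1.24% to 1.86% of counts after injection and 1.78% to 3.27% without. Nuclear rRNA alone took 0.221% to 0.528% after injection and 0.557% to 1.58% without, so its groups did not overlap. Mitochondrial rRNA took 0.998% to 1.33% and 1.07% to 1.69%, which overlapped. Whether the rRNA left in a library bears on the members' levels was not tested. With rRNA and mitochondrial genes left out of the library totals, the median interaction was 0.65 and none of the members was called for injection.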

How the data were processed

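RNA was extracted by the submitters from whole frozen biopsies in Trizol with a lipid tissue column kit and depleted of rRNA with RiboZero Gold, per the labels' protocols. Tools listed in the submitters' processing notes are STAR 2.5.1a, the Subread package with featureCounts 1.4.6-p5, and bcl2fastq, with the genome build Sscrofa11.1. The annotation version, the strand setting and the handling of reads that match several genes are not given in the sources used here. Reads of overlapping genes on opposite strands may therefore not be told apart. Such a gene overlaps 5 members, SNORD17 (MGME1), ENSSSCG00000018303 (TAF1D), ENSSSCG00000018620 (SSNA1), ENSSSCG00000020045 (ACAA2) and a SNORA70 gene (CCT6B).

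The authors deposited raw counts per gene, which were the values tested. The authors also deposited CPM (the count over the library total) and RPKM (that CPM per kilobase), which were used for checks only. The series table had 32388 rows for 31907 genes, the 425 genes on several rows having the same counts on each, and 1 row per gene was kept. The sample file of the pig 13 control from site 7b ended after 607 genes, so its counts came from the series table, with which all files were equal where both had a gene.

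Members and lists were chosen with earlier results of these data known. Genes with enough counts (filterByExpr, minimum count 10) left 19862 tested genes. Counts were tested with edgeR 4.0.16 (limma 3.58.1, R 4.3.3), using TMM factors of 0.913 to 1.09, a robust quasi-likelihood F test with pig as block, and Benjamini-Hochberg adjustment over all tested genes at 0.05. The biological coefficient of variation was 19.8%. The interaction was tested in a model with a pig by treatment term. A standard error is the log2 fold change over the square root of F. CPM printed are from these TMM-scaled totals, computed with pandas 2.3.3. The code was tested on simulated data, for the contrast of injection only. It called 69 of 100 genes with a true log2 change of 1 in size and 96 of 100 with one of 2. Of its 185 calls 20 were false. Calls for pig and for the interaction were not checked in this way.

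Biopsies of one pig deviated together, with correlations of their deviations from the group means of 0.196 to 0.584 within a pig and -0.526 to -0.251 between pigs, and pig is taken from the labels. Totals per biopsy ran from 28471089 to 36070107 counts, and the limit of 3 counts for a gene at 0 covers counting error only. Alternatives were other size factors, totals without 58 rRNA and mitochondrial genes, no filter, DESeq2 1.42.0, no block, each biopsy left out in turn, and member minimums of 20 and 100. Named members were the 10 of the highest level, the 10 scaRNAs of the highest level, the 5 of smallest p in each direction for injection, the 4 of smallest p in each direction between pigs, the 3 of smallest interaction p, those nearest the minimum and a few fixed names. SCARNA1, SNORD22, SNORD35A, the SNORA63 gene ENSSSCG00000019309, SNORD96, SNORA12, SNORA23, ENSSSCG00000020152, ENSSSCG00000039255 and members listed from an alternative were named after their values were seen. The sources used here held no sequences of these RNAs.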

Additional observations from a re-analysis of the deposited data

Results flagged for a closer look

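In 5 groups of 4 biopsies 1 biopsy lay far from the other 3, past Dixon's 95% critical value for the gap over the range. Over the 32 named members 64 groups were checked, and chance flags about 1 in 20 groups. SCARNA7 was at 455 CPM in the pig 13 injected biopsy from site 12e, and at 628 to 656 CPM in the other injected biopsies. SCARNA10 was at 490.4 CPM in the pig 14 control from site 6b and at 337 to 359 CPM in the other controls. The other 3 were highest in the pig 13 control from site 7b. SNORA62 was at 3.55 CPM there and at 0.847 to 1.30 CPM in the other controls, ENSSSCG00000020173 at 4.83 CPM against 3.05 to 3.35 CPM, and the SNORA74 gene ENSSSCG00000044718 at 1.86 CPM against 1.45 to 1.52 CPM. That biopsy also had the lowest fibroblast and the highest keratinocyte marker sums given above, whose part in these values was not tested.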

How the results depend on the processing

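Of 556 recomputed values of 43 results, 508 kept their direction and their side of the threshold. DESeq2 called 13 members between the pigs and 2 for the interaction. With 1 biopsy left out, calls ran from 1 to 14 between the pigs, from 0 to 7 for the interaction and from 0 to 0 for injection, for members and for the protein lists. The members' median log2 fold change for injection then ran from -0.11 to 0.19 and their summed ratio from 0.863 to 1.045. Without the replicate block, 0 members were called for injection by a fit of treatment alone and 9 between the pigs by a fit of pig alone, the median for injection was 0.03, and SNORA21 was at 0.0084 (main value -0.13). The following log2 fold changes for injection, none called, changed sign when 1 biopsy was left out. SCARNA13 ran from -0.19 to 0.041, SCARNA7 from -0.062 to 0.25, SCARNA10 from -0.16 to 0.031 and SCARNA3 from -0.24 to 0.041. The SNORA73 gene ENSSSCG00000037630 ran from -0.087 to 0.36, ENSSSCG00000034185 from -0.037 to 0.29, SNORA48 from -0.053 to 0.21 and SNORA21 from -0.54 to 0.25. Of those without symbol, ENSSSCG00000042218 ran from -0.014 to 0.13, ENSSSCG00000029412 from -0.61 to 0.080, ENSSSCG00000020045 from -0.27 to 0.018, ENSSSCG00000020173 from -0.34 to 0.053, ENSSSCG00000018229 from -0.13 to 0.24 and ENSSSCG00000040136 from -0.30 to 0.040. The cause was not tested, beyond fewer samples. The pig calls lost in this way are given above, and each of the 6 members called higher lost its call at least once. Depth was lowest for the members of small mean count, such as SNORD45A with 16 to 160 counts per biopsy.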
